A study of Rattus norvegicus with 6 samples.

Results

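The microRNAs described here are those of the miR-10, miR-99 and miR-100 family, counted by small RNA sequencing in PC12 cells, a rat adrenal pheochromocytoma line. They were chosen by name, as every row for miR-10a, miR-10b, miR-99a, miR-99b or miR-100, whichever arm of the hairpin it covers. That gave 8 of 1289 rows, the 5p and 3p arms of miR-99b, miR-99a, miR-100 and miR-10a. No row matched miR-10b, which is not analysed here. The groups are called EN and EC in the labels, with 3 libraries each, and the labels neither spell out these names nor state an agent, a dose or a time for them. All 6 libraries come from the same line, and the series title concerns Netrin-1, exosomes of endothelial cells and repair of peripheral nerve. Nothing says that the libraries come from separate cultures, so the p-values below speak of the spread among these 6 libraries, part of which may be technical.

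The family is among the oldest in animals and is usually split by its seed, the stretch near the 5′ end that pairs with target mRNAs. The genes of miR-10 lie inside Hox clusters, the arrays of transcription factor genes that set position along the body axis, and miR-10b is known in human cells for repressing HOXD10. The miR-99 and miR-100 genes lie outside them, each in a cluster with a let-7 and a miR-125 gene, and their products are known in human cells for lowering mTOR, a kinase that controls growth. One hairpin gives a 5p and a 3p arm, of which usually one, the guide, is kept in quantity. In this family the guide is the 5p arm.

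A RefSeq table of the GRCr8 assembly held the mature sequences of 7 of the 8 rows, and that of miR-99a-5p was not among them. They are shown, 5′ to 3′, because the split of the family rests on their seeds. Capitals mark bases 2 to 8.
miR-99b-5p: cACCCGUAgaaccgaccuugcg
miR-100-5p: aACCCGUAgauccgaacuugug
miR-10a-5p: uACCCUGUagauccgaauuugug
miR-99b-3p: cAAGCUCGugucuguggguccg
miR-99a-3p: cAAGCUCGuuucuaugggucug
miR-100-3p: cAAGCUUGugucuauaggu
miR-10a-3p: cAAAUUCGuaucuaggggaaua

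MiR-99b-5p and miR-100-5p had the same seed, and no further mature sequence in the table carried it. They differed at 4 of 22 positions. The seed of miR-10a-5p was another one, held by no other rat sequence in the table, although miR-10a-5p and miR-100-5p shared an unbroken run of 11 bases, GUAGAUCCGAA. The table held 693 rat mature sequences and lacked miR-99a-5p, so it may not show every carrier of these seeds. Among the 3p arms, miR-99b-3p and miR-99a-3p shared a seed and differed at 3 of 22 positions. The sources used here do not say how reads matching several such sequences were assigned, so counts of these close relatives may be split between rows. No level below was divided by sequence length, and the printed sequences have 19 to 23 bases.

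The hairpins of miR-99b and miR-10a show how both arms sit in the precursor, and they are given for the pair that is compared below. Capitals mark the mature arms, the first being 5p. They come from the plus strand of chromosomes 1 and 10 of GRCr8.
Mir99b: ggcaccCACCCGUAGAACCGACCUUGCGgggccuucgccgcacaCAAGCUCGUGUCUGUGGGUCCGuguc
Mir10a: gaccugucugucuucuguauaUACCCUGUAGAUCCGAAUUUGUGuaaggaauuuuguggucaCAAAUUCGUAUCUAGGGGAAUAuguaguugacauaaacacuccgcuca

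In the RefSeq gene order, Mir10a, on chromosome 10, lay between Hoxb5 and Hoxb4. Mir99b, on chromosome 1, lay within the gene Spaca6 and was followed by Mirlet7e and Mir125a. Mir99a, on chromosome 11, was followed by Mirlet7c1 and Mir125b2. Mir100, on chromosome 8, lay within the noncoding genes Mir100hgl and Lnc215 and was followed by Mirlet7a-2 and Mir125b1. None of the 4 family genes overlapped another annotated miRNA gene, unlike some of their neighbours. The submitters' build is Rnor 6.0, so coordinates of GRCr8 are not given.

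The libraries held 4521694 to 5371351 miRNA counts in EN and 6153582 to 6554639 in EC. Of the 5 markers of the labelled cell type, the neuroendocrine miR-7a-5p stood at 1235 to 1488 CPM (miRNA counts brought to a common library size with TMM factors) in EN and 973 to 1134 CPM in EC. MiR-375-3p was at 2.22 to 3.07 CPM in EN and 1.98 to 3.19 CPM in EC, and miR-182 at 12.9 to 14.5 and 10.7 to 15.3 CPM. The other way, miR-96-5p was lower in EN without overlap, at 1.53 to 3.20 CPM in EN and 3.40 to 3.97 CPM in EC. MiR-183-5p had 28, 0 and 0 reads in EN and 12, 76 and 18 reads in EC. The 4 neuronal markers, none at 0, summed to 2416 to 2662 CPM in EN and 2200 to 2581 CPM in EC. Of these miR-128-3p was higher, at 1119 to 1196 CPM in EN and 687 to 748 CPM in EC (log2 fold change 0.69, adjusted p = 0.0177 by edgeR's quasi-likelihood test). MiR-9a-5p stood at 1002 to 1253 CPM in EN and 1221 to 1640 CPM in EC, and miR-138-5p at 232 to 266 CPM in EN and 204 to 231 CPM in EC. MiR-124-3p was at most 1.10 CPM in EN and 0.80 CPM in EC. Of the 2 endothelial markers, miR-126a-3p stood at 1053 to 1200 CPM in EN and 1007 to 1077 CPM in EC, and miR-126a-5p was lower, at 28.5 to 39.3 CPM in EN and 56.8 to 66.2 CPM in EC (log2 fold change -0.86, adjusted p = 0.0471 by the same edgeR test). The 4 blood markers, none at 0, summed to 155.9 to 178.3 CPM in EN, above the 94.0 to 126.1 CPM of EC. Most of the sum was miR-150-5p, at 123.8 to 157.5 CPM in EN and 83.0 to 118.7 CPM in EC. MiR-451-5p was higher, at 19.7 to 30.5 CPM in EN and 5.10 to 9.77 CPM in EC (log2 fold change 1.52, edgeR adjusted p = 0.0471). MiR-142-3p averaged 1.11 CPM in EN and 1.60 CPM in EC, and miR-223-3p had at most 3 reads. The part of these markers in the values below was not tested.

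In order of level, the family ran from miR-99b-5p through miR-99a-5p, miR-10a-5p and miR-100-5p to miR-99b-3p, miR-99a-3p, miR-10a-3p and miR-100-3p. This order held in each of the 6 libraries, and neighbours in it did not overlap within either group. The closest neighbours were miR-99b-5p and miR-99a-5p, with a ratio from 1.04 to 1.82 over the libraries, and miR-10a-5p and miR-100-5p, with a ratio from 1.08 to 1.56. TMM scaling sets the bulk of rows level between libraries.

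**Figure D1:**
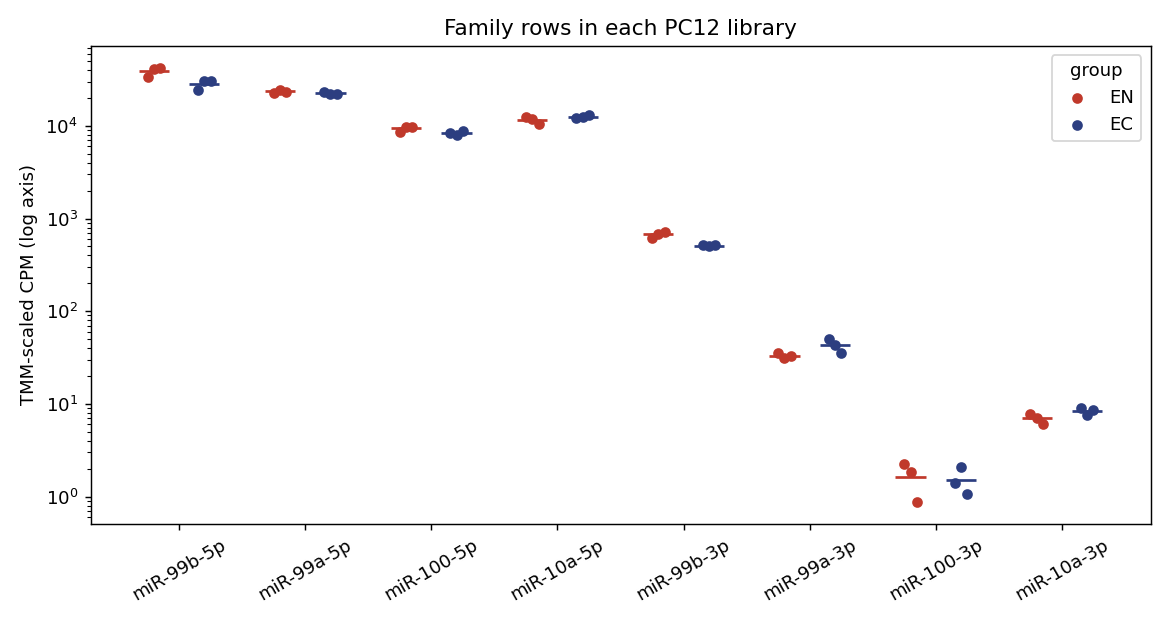
TMM-scaled CPM, on a log axis, of the 8 family rows in each library, with 3 EN libraries (red) left of 3 EC libraries (blue) and bars at the group means. The 5p rows lie between 8060 and 42573 CPM and the 3p rows at 721.9 CPM or below, and the points of miR-99b-5p and miR-99b-3p (EN higher) and of miR-99a-3p (EN lower) do not overlap between groups.

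The row rno-miR-99b-5p, the most abundant member, was counted at 33708, 40996 and 42573 CPM in EN and at 24143, 30473 and 30201 CPM in EC. All EN values lay above all EC values, EC replicate 1 being the lowest. The means were 39092 ± 4729 CPM in EN and 28272 ± 3578 CPM in EC (SD, n = 3), a 1.38-fold ratio or a log2 fold change of 0.47 (SE 0.13, 95% interval 0.17 to 0.77). The quasi-likelihood test of edgeR, Benjamini-Hochberg adjusted over 628 rows, gave an adjusted p of 0.0861, which misses the threshold of 0.05.

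The row rno-miR-99b-3p, the passenger arm of the same hairpin, stood at 622, 679 and 722 CPM in EN and at 518, 501 and 518 CPM in EC. Again the groups did not overlap, and here the EC libraries differed little from each other. The log2 fold change was 0.40 (SE 0.11, 95% interval 0.14 to 0.66), with an edgeR adjusted p of 0.0885.

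MiR-99a-5p, which differs from miR-99b in its locus and its partners, stood at 22857, 24486 and 23370 CPM in EN and at 23170, 22266 and 22129 CPM in EC. The ranges overlapped. The log2 fold change was 0.07 (SE 0.07, 95% interval -0.10 to 0.23), with an edgeR adjusted p of 0.649. On this scale the interval ends below the estimate for miR-99b-5p, 0.47, but it overlaps the interval of that row, 0.17 to 0.77.

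MiR-99a-3p stood at 35.5, 31.5 and 32.9 CPM in EN and at 50.2, 42.9 and 35.9 CPM in EC, from 138 to 325 reads. All EN values were below all EC values, with EC replicate 3 close to EN replicate 1. The log2 fold change was -0.37 (SE 0.17, 95% interval -0.76 to 0.03), with an edgeR adjusted p of 0.253.

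MiR-100-5p stood at 8664, 9793 and 9798 CPM in EN and at 8445, 8060 and 8812 CPM in EC. The lowest EN value lay within the EC range. The log2 fold change was 0.16 (SE 0.09, 95% interval -0.05 to 0.37), with an edgeR adjusted p of 0.342. MiR-100-3p had only 12, 8 and 4 reads in EN and 9, 13 and 7 reads in EC. At this depth the 95% interval of its log2 fold change ran from -0.99 to 1.25.

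MiR-10a-5p, the guide arm of the Hox-locus member, stood at 12541, 12017 and 10619 CPM in EN and at 12104, 12576 and 13063 CPM in EC. The ranges overlapped, and the lowest value was that of EN replicate 3. The log2 fold change was -0.10 (SE 0.09, 95% interval -0.32 to 0.11), with an edgeR adjusted p of 0.585. MiR-10a-3p had 42, 31 and 28 reads in EN and 58, 48 and 57 reads in EC. In CPM its groups overlapped, at 6.13 to 7.77 in EN and 7.66 to 8.96 in EC, with a log2 fold change of -0.27 (SE 0.21).

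Counted over the family, 0 of 8 rows passed edgeR's test, where 3.98 percent of the 628 rows tested did, 2.07 percent higher and 1.91 percent lower in EN. At an unadjusted p under 0.05 there were 2, both arms of miR-99b, beside 21.7 percent of all rows. DESeq2 called the same pair, with adjusted p of 0.0364 for the 5p and 0.0253 for the 3p arm, where it called 11.3 percent of rows. Limma-voom called 0, where it called 3.66 percent. EdgeR called both arms when predicted rows were left out (6.32 percent of rows) and the 5p arm alone with no filter on low counts (3.41 percent). Groups did not overlap in 3 of the 8 rows, 2 higher and 1 lower in EN, beside 29.6 percent of all rows, 15.0 percent higher and 14.6 percent lower. The log2 fold changes were positive in 5 family rows and negative in 3, with a median of 0.10, where the median of all rows was 0.02.

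The direction of several members depended on what their counts were divided by. The deposited RPM values divide by a library total that exceeds the miRNA counts, of which miRNA counts made up 25.0 to 26.9 percent in EN and 30.9 to 32.6 percent in EC. In RPM, miR-99b-5p stood at 9114, 9914 and 10883 in EN and at 7931, 9993 and 9327 in EC, and the groups overlapped. MiR-10a-5p stood at 3391, 2906 and 2714 RPM in EN and at 3976, 4124 and 4035 RPM in EC, all EN values being lower. MiR-99a-5p, at 5922 to 6180 RPM in EN and 6834 to 7612 RPM in EC, and miR-100-5p, at 2342 to 2505 RPM in EN and 2643 to 2774 RPM in EC, were also lower in EN without overlap.

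In RPM 0 of 8 family rows were higher and 5 lower in EN without overlap, where 5.73 percent and 33.9 percent of all rows were. With these totals in edgeR the median of all rows moved to -0.30. The log2 fold changes were then 0.13 for miR-99b-5p, 0.06 for miR-99b-3p, -0.17 for miR-100-5p, -0.27 for miR-99a-5p and -0.43 for miR-10a-5p. Measured from that median, miR-99b-5p stood at 0.44, miR-99b-3p at 0.37, miR-100-5p at 0.13, miR-99a-5p at 0.04 and miR-10a-5p at -0.13. Measured from the median under TMM scaling, the same rows stood at 0.45, 0.38, 0.14, 0.05 and -0.12. With these totals edgeR called 2 members lower, miR-10a-5p with an adjusted p of 0.0371 and miR-99a-3p at -0.70 with 0.0484, where it called 16.3 percent of rows.

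**Figure D2:**
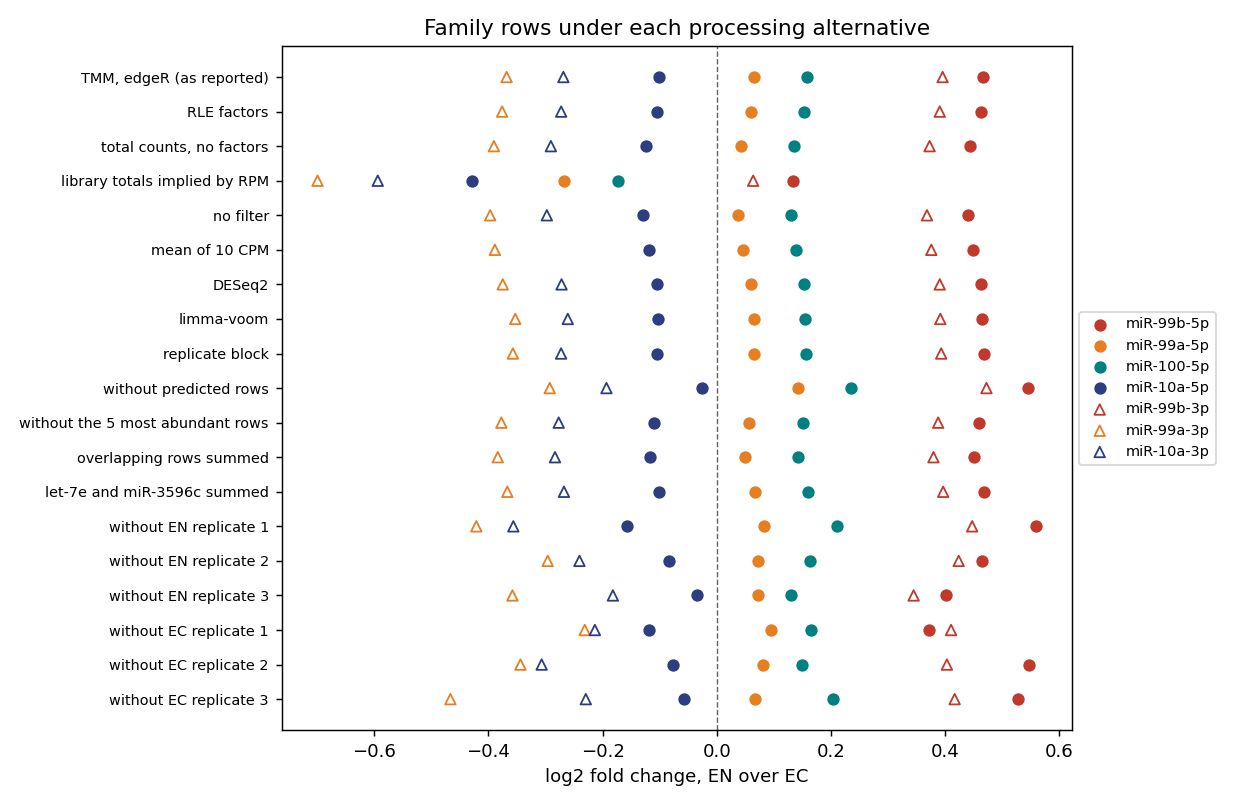
Log2 fold change of EN over EC (x axis) of 7 family rows under the reported processing and each alternative (rows), with 5p arms as filled circles and 3p arms as open triangles; miR-100-3p is left out for its low counts. Both miR-99b arms lie to the right of the other members in each setting, and with library totals implied by RPM all rows shift to lower values, from -0.70 for miR-99a-3p to 0.13 for miR-99b-5p.

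Ratios between members within a library need no scaling, so they compare read counts of the Hox-locus miR-10 with those of miR-99 and miR-100. How evenly the sequences of different members were captured was not assessed. The miR-10a-5p count was 0.372, 0.293 and 0.249 of the miR-99b-5p count in EN and 0.501, 0.413 and 0.433 of it in EC. Each EN library lay below each EC library. The log2 ratio averaged -1.73 ± 0.29 in EN and -1.16 ± 0.15 in EC (SD, n = 3), a difference of -0.57. The two-sided exact permutation p was 0.1, the smallest that 3 against 3 libraries allow.

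Of 6 pairs among the 4 rows of 5p arms, the 3 with miR-99b-5p separated the groups. These 3 share that row, so they are not independent of each other. The share of separating ratios over all rows was not computed, and of single rows 29.6 percent did not overlap in CPM. MiR-99a-5p was 0.678, 0.597 and 0.549 of miR-99b-5p in EN and 0.960, 0.731 and 0.733 of it in EC, a difference in log2 ratio of -0.40. MiR-100-5p was 0.230 to 0.257 of miR-99b-5p in EN and 0.265 to 0.350 of it in EC, a difference of -0.31. Each had an exact permutation p of 0.1, or 0.2 after Benjamini-Hochberg adjustment over the 6 pairs. The ratios that leave out miR-99b-5p overlapped between groups. For them the difference in log2 ratio was -0.17 for miR-10a-5p over miR-99a-5p, 0.09 for miR-100-5p over miR-99a-5p and 0.26 for miR-100-5p over miR-10a-5p, each with an exact permutation p of 0.2.

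**Figure D3:**
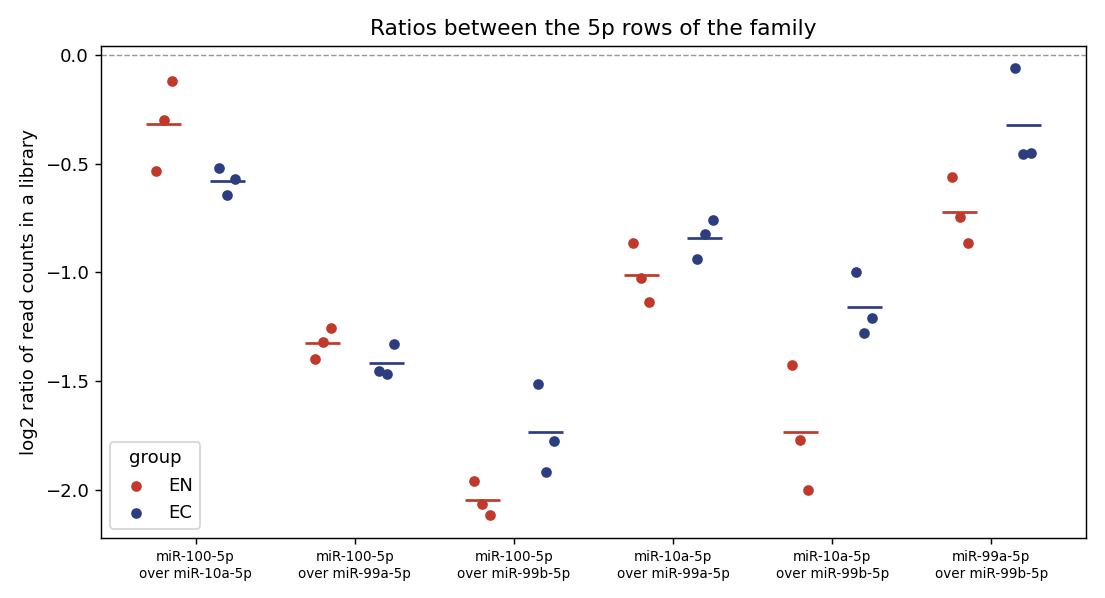
Log2 ratio of read counts between each pair of 5p rows (x axis) in each library, with EN (red) left of EC (blue) and bars at the group means. The 3 pairs with miR-99b-5p as the denominator have no overlap, with EN lower by 0.31 to 0.57, and the other 3 pairs overlap.

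As shares of all family counts, miR-10a rows took 16.0, 13.7 and 12.2 percent in EN and 17.7, 17.0 and 17.5 percent in EC, and miR-99 and miR-100 rows took the rest. The EC libraries were close to each other and the EN libraries spread downward from them. MiR-99b-5p took 46.1 ± 2.97 percent in EN and 38.96 ± 3.22 percent in EC (SD, n = 3). MiR-99a-5p took 27.9 ± 1.16 percent in EN and 31.2 ± 2.32 percent in EC, and miR-100-5p took 11.1 ± 0.10 percent in EN and 11.7 ± 0.72 percent in EC. The whole family took 8.38 ± 0.44 percent of miRNA counts in EN and 7.30 ± 0.35 percent in EC, but 2.16 ± 0.06 percent in EN and 2.33 ± 0.09 percent in EC of the library totals implied by RPM. A sum over members was given no test.

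The 5p arm dominated in each hairpin, most in miR-100 and least in miR-99b. The 3p arm made up 1.81, 1.63 and 1.67 percent of miR-99b reads in EN and 2.10, 1.62 and 1.69 percent in EC. It made up 0.129 to 0.155 percent of miR-99a reads in EN and 0.162 to 0.216 percent in EC. For miR-10a the range was 0.0577 to 0.0619 percent in EN and 0.0609 to 0.0739 percent in EC. For miR-100 it was 0.0089 to 0.0256 percent in EN and 0.0121 to 0.0257 percent in EC, from at most 13 reads of the 3p arm.

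Limma's test of log2 5p to 3p ratios covered 92 miRNAs, of which it called 5.43 percent after Benjamini-Hochberg adjustment, and 0 of the 3 family members tested. The ratio of miR-99a was 0.42 higher in EN (SE 0.17, 95% interval 0.00075 to 0.84), with an adjusted p of 0.221 and an unadjusted p of 0.0497. That of miR-99b differed by 0.07 (SE 0.16, 95% interval -0.32 to 0.47) and that of miR-10a by 0.15 (SE 0.14, 95% interval -0.19 to 0.50). MiR-99a was the 1 member of 3 at an unadjusted p under 0.05, beside 21.7 percent of the 92 miRNAs, and the 1 whose groups did not overlap, beside 30.4 percent. MiR-100 had too few 3p reads to enter.

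**Figure D4:**
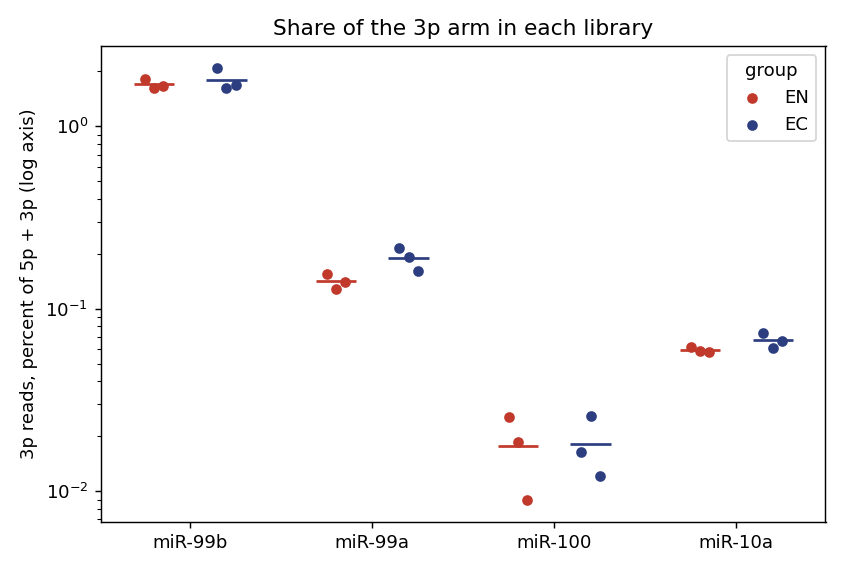
Reads of the 3p arm as a percentage of 5p and 3p reads, on a log axis, for each hairpin and library, with EN (red) left of EC (blue) and bars at the group means. MiR-99b lies between 1.62 and 2.10 percent, and only miR-99a separates the groups, at 0.129 to 0.155 percent in EN and 0.162 to 0.216 percent in EC.

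The miRNAs of the neighbouring genes were set against each family gene. Of 15 rows for cluster partners, edgeR called 0, where it called 3.98 percent of all rows. With library totals implied by RPM, edgeR called 16.3 percent of rows. These included miR-125a-5p at -0.56 (adjusted p = 0.0224), let-7c-5p at -0.42 (0.0267) and miR-125b-1-3p at -0.85 (0.0135). With TMM scaling, the median log2 fold change of the 15 rows was -0.03, the value of let-7a-1-3p. That row and let-7c-2-3p belong by name to other let-7 genes than those beside Mir100 and Mir99a. These 2 rows, let-7a-5p, miR-3596a, miR-125b-5p and miR-3588 varied so much between libraries (SE 2.34 to 3.49) that a call was hardly possible for them. In the cluster of miR-99b, let-7e-5p stood at 3758 ± 622 CPM in EN and 4004 ± 741 CPM in EC (SD, n = 3), a log2 fold change of -0.09 (95% interval -0.51 to 0.32). The gene of let-7e overlaps that of miR-3596c, and with both rows summed, a test added after seeing the data, the log2 fold change was -0.10. MiR-125a-5p stood at 3068, 3163 and 3130 CPM in EN and at 3165, 3733 and 4068 CPM in EC. These groups were nearly touching, with 3163.3 CPM as the highest EN value and 3164.7 CPM as the lowest EC value. The log2 fold change was -0.23 (95% interval -0.50 to 0.04).

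The passenger arms of that cluster had log2 fold changes of 0.13 for let-7e-3p and 0.23 for miR-125a-3p, with groups that overlapped. Neither differed past the threshold, with edgeR adjusted p of 0.649 and 0.471. With library totals implied by RPM they were -0.20 and -0.11, where the median of all rows was -0.30. The miR-99b arms were then at 0.13 (5p) and 0.06 (3p). The 5p partners, let-7e-5p and miR-125a-5p, were then at -0.42 and -0.56. With TMM scaling both had negative estimates beside the positive ones of miR-99b, but their intervals included 0. Let-7e-5p turned positive without EN replicate 3 (0.04) and without EC replicate 3 (0.07). A test of the difference between miR-99b and its partners was not run.

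In the cluster of miR-99a, let-7c-5p, which a further gene also encodes, stood at 50377 ± 4460 CPM in EN and 53498 ± 4101 CPM in EC, a log2 fold change of -0.09. A pair of passenger arms belong to this locus by name. Let-7c-1-3p had a log2 fold change of 0.11 and miR-125b-2-3p one of 0.18. With library totals implied by RPM these were -0.22 and -0.16, where the median of all rows was -0.30. In the cluster of miR-100, let-7a-2-3p had a log2 fold change of 0.05, or -0.28 with those totals. MiR-125b-1-3p stood at 699, 907 and 739 CPM in EN and at 1258, 1057 and 1021 CPM in EC, all EN values being lower. Its log2 fold change was -0.51 (SE 0.15, 95% interval -0.85 to -0.16) with an edgeR adjusted p of 0.0924, and DESeq2 called it at 0.0253.

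The let-7a-5p and miR-125b-5p rows could not be read alone, since each was far lower in some libraries than in others of its group while the row of an overlapping gene, miR-3596a or miR-3588, was high there. Let-7a-5p and miR-3596a together stood at 16877 ± 1810 CPM in EN and 18739 ± 3520 CPM in EC. MiR-125b-5p and miR-3588 together stood at 15376 ± 575 CPM in EN and 19032 ± 5026 CPM in EC. Their summed log2 fold changes were -0.15 and -0.31, with edgeR adjusted p of 0.636 and 0.406. No family row had such a pattern: each of the 4 rows of 5p arms had at least 42846 reads in each library.

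**Figure D5:**
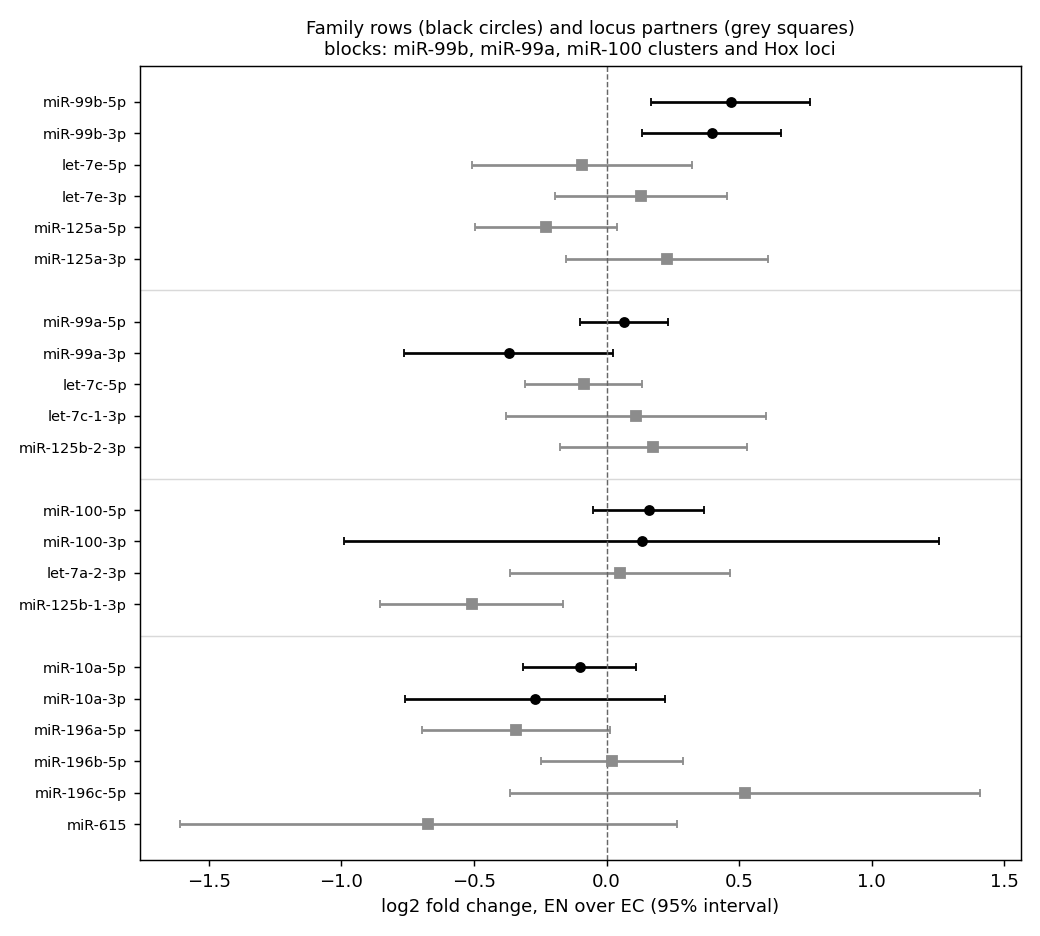
Log2 fold change of EN over EC with its 95% interval for family rows (black circles) and rows of neighbouring or other Hox-locus miRNAs (grey squares), grouped by locus from miR-99b at the top to the Hox loci at the bottom. Of the family rows only the miR-99b arms have intervals that leave out 0, at 0.17 to 0.77 and 0.14 to 0.66, and the miR-125b-1-3p interval lies below 0.

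MiR-196 and miR-615, the other miRNAs of the Hox clusters, were the partners of miR-10a. Of 6 such rows 4 were tested, and edgeR called 0, where it called 3.98 percent of all rows. At that share, 0 calls in so few rows says nothing about them. MiR-196a-5p, whose annotated gene lies between Hoxc10 and Hoxc9, stood at 205, 232 and 213 CPM in EN and at 231, 310 and 283 CPM in EC. The groups overlapped at a single library of each, and the log2 fold change was -0.34 (95% interval -0.69 to 0.01). With library totals implied by RPM it was -0.67, with an edgeR adjusted p of 0.0275, where 16.3 percent of rows were called. MiR-196b-5p, whose gene lies between Hoxa9 and Hoxa10, stood at 1118 ± 60.9 CPM in EN and 1102 ± 98.1 CPM in EC, a log2 fold change of 0.02 that became -0.31 with library totals implied by RPM. MiR-196c-5p and miR-615 had at most 16 reads in any library.

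Among 366 known rat rows outside the family with reads in each library, miR-99b-5p was most alike, by Pearson's r of log2 CPM over the 6 libraries, to miR-196c-5p at 0.94. Next came miR-28-3p and miR-425-5p at 0.929 each, miR-139-3p at 0.909 and miR-1306-3p at 0.90. MiR-196c-5p rests on 7 to 12 reads. MiR-28-3p, at 140 ± 18.9 CPM in EN and 84.8 ± 7.30 CPM in EC (SD, n = 3), and miR-425-5p, at 869.6 ± 41.5 CPM in EN and 695.8 ± 14.4 CPM in EC, had groups that did not overlap. Nor did those of miR-139-3p, at 3.70 to 7.54 CPM in EN and 2.32 to 2.75 CPM in EC. Such separation follows in part from the choice, since miR-99b-5p itself separated the groups. Of all rows 15.0 percent were higher in EN without overlap. Within the family, Pearson's r against miR-99b-5p was 0.892 for miR-99b-3p, 0.827 for miR-100-5p and 0.543 for miR-99a-5p. It was -0.579 for miR-10a-5p, -0.908 for miR-10a-3p and -0.912 for miR-99a-3p. These values describe the highest of many over 6 libraries that share the group difference, and they carry no test.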

How the data were processed

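Small RNA of 3 EN and 3 EC libraries of PC12 cells was counted per mature miRNA. The authors deposited whole-number read counts per row and, beside them, RPM values that equal the count over a constant library total. HISAT2 2.0.5 and the build Rnor 6.0 are named in the submitters' processing notes. The sources used here give no counting program, strand rule or multi-mapping rule. Among 1289 rows, 584 are known rat miRNAs and 705 are predicted.

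EN was set against EC over the deposited counts with edgeR 4.0.16 (R 4.3.3): filterByExpr, TMM, robust quasi-likelihood test, Benjamini-Hochberg over 628 rows, threshold 0.05. SE is the absolute log2 fold change over the square root of F. Arm ratios, log2((5p + 1)/(3p + 1)), were tested with limma 3.58.1 in known miRNAs with a mean of 20 or more counts per arm. Ratios between members were compared by exact permutation (scipy 1.17.1). DESeq2 1.42.0 was an alternative. The fits were tested on simulated data. Members, lists and tests were chosen with earlier results of these data known. Named rows are all family rows, the listed cluster and Hox partners, and the 5 known rows most correlated with miR-99b-5p. Sequences and gene order are from RefSeq, GRCr8.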

Additional observations from a re-analysis of the deposited data

How the results depend on the processing

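Rows of the family kept their direction and their side of the threshold in 129 of 140 values under the alternatives, newly passed in 7 and changed sign in 4. No family row passed in the main fit, and the alternatives called 0.305 to 16.3 percent of all rows, so most values would stay uncalled anyway. Partner rows and rows most like miR-99b-5p, the highly variable ones left out, kept theirs in 274 of 302 values. They newly passed in 12 and changed sign in 16. MiR-99b-5p ranged from 0.13 to 0.56 on the log2 scale over all alternatives. It passed with DESeq2, without a filter (adjusted p = 0.0206) and without predicted rows (0.0495), as did miR-99b-3p with DESeq2 and without predicted rows (0.0485), edgeR calling 3.41 percent of rows without a filter and 6.32 percent without predicted rows. Without 1 library, miR-99b-5p lay between 0.37 and 0.56 and never passed edgeR's test. MiR-100-3p ranged from -0.17 to 0.43 there, let-7e-5p from -0.20 to 0.073, let-7a-2-3p from -0.089 to 0.20, miR-196b-5p from -0.018 to 0.12 and the miR-99b arm ratio from -0.043 to 0.15.

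With library totals implied by RPM, the EN minus EC gap in the family's share of counts was -0.17 percentage points, against 1.09 as a share of miRNA counts (0.88 to 1.33 without 1 library). The changed divisor also gave -0.27 for miR-99a-5p, -0.17 for miR-100-5p, -0.20 for let-7e-3p, -0.11 for miR-125a-3p, -0.22 for let-7c-1-3p, -0.16 for miR-125b-2-3p, -0.28 for let-7a-2-3p, -0.31 for miR-196b-5p, -0.0090 for miR-425-5p and -0.073 for miR-1306-3p. With it the median of all rows was -0.30. MiR-196b-5p became -0.0011 with total counts and -0.0044 without a filter. The cause was not tested for these or for reversals without 1 library (miR-100-3p at -0.17 without EN replicate 1 and -0.04 without EC replicate 3).

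Over all rows 25 were called, and 101 with totals implied by RPM, 44 without a filter, 70 with DESeq2 and 2 to 39 without 1 library (3 without EN replicate 2, 2 without EN replicate 3, 10 without EC replicate 1, 39 without EC replicate 2 and 8 without EC replicate 3). The fit without EN replicate 1 called 34 rows. Family rows called numbered 0 in each of the 6 fits without 1 library, where those fits called 0.305 to 6.13 percent of rows. At such shares, 0 calls in so few rows says nothing about them. Arm ratio calls were 5, and 0 to 9 without 1 library. The difference in log2 ratio of miR-10a-5p to miR-99b-5p was -0.73 to -0.44 without 1 library and -0.39 against the summed miR-99 and miR-100 5p rows, and the gap in the miR-10a share was -4.47 to -2.57 percentage points. With the number entered as a replicate block, edgeR called 2 rows and limma 0 arm ratios, and the miR-10a to miR-99b difference was -0.57 (exact sign-flip p = 0.25, the smallest possible). Same-numbered libraries deviated together at r = 0.086, -0.039 and 0.015, so the numbers were not taken as pairs. Depth limits miR-100-3p and miR-10a-3p.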
